A study of Homo sapiens with 12 samples.

Results

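The genes described here encode the EGF family ligands AREG, EREG, HBEGF, TGFA, NRG1 and BTC and the ERBB receptors EGFR, ERBB2 and ERBB3. They were the 9 rows of the deposited table of 75253 rows whose symbol is one of those names, read in all 12 libraries. A375 and LOX-IMVI BR, human melanoma cell lines that are known to carry an activating BRAF mutation, were grown in 6-well plates and given a control, 6-thio-dG at 5 µM or BIBR1532 at 25 µM, with 2 biological replicates of each of the 6 line and treatment groups. 6-thio-dG is a nucleoside analogue that telomerase builds into telomeres, and BIBR1532 is a small molecule that blocks telomerase's catalytic subunit. The study asked how 6-thio-dG alters gene expression in melanoma cells. The content of the control, the time of exposure and what BR stands for are not given in the sources used here. Each group is 1 line in 1 condition, so a difference between the lines is a difference between 2 lines only. The doses of the compounds differ, so their values are set side by side at different doses.

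EGF family ligands are made as membrane-anchored precursors and are cut free by ADAM proteases, ADAM17 and ADAM10 in particular. A ligand binds an ERBB receptor outside the cell, the receptors pair, and the kinase domains inside phosphorylate each other, which starts the RAS to ERK and the PI3K to AKT cascades. EGFR binds TGFA, AREG, EREG, HBEGF and BTC, while ERBB3 binds the neuregulins such as NRG1 and has a very weak kinase of its own. ERBB2 has no known ligand and acts as the partner of the others. In melanoma, ERBB3 with NRG1 and EGFR are known for their part in escape from BRAF and MEK inhibitors.

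Levels are given as CPM, which are counts brought to a common library total and scaled between libraries with edgeR's TMM factors. Levels of different genes are compared only as CPM per kilobase of transcript. A member was called where edgeR's quasi-likelihood test gave a Benjamini-Hochberg adjusted p under 0.05 over all 29114 genes tested in that comparison; every adjusted p below comes from that test, and every change is a log2 fold change ± its standard error. All 9 members passed the filter on low counts. The compounds share the control libraries of their line.

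Library totals ran from 11813388 to 25822381 counts, and the A375 6-thio-dG libraries, with 11813388 and 12151180, were the lowest. Replicates of A375 control and of A375 6-thio-dG lay further apart (median difference over the genes tested 0.68 and 0.71 on the log2 scale) than those of the other 4 groups (0.13 to 0.22). The melanocyte enzyme TYR was at 0 in both control groups and DCT was at 0 in LOX-IMVI BR control. SOX10, the lineage factor of melanocytes, was at 551 ± 55.3 CPM (mean ± SD, n = 2 here and below) in A375 control and 0.592 ± 0.128 CPM in LOX-IMVI BR control. The 10 melanocyte markers summed to 637 to 733 CPM in A375 control and 66.4 to 68.1 CPM in LOX-IMVI BR control, with 4 of the 10 over 1 CPM in each. The summed level of the 8 fibroblast markers was 1879 to 1913 CPM in LOX-IMVI BR control, 42.8 to 46.4 CPM with 6-thio-dG and 1603 to 1686 CPM with BIBR1532. In A375 it was 13.4 to 26.1 CPM, and COL1A1 led that list in LOX-IMVI BR. CD3E, which defines T cells, was at 0 in 5 of the 6 groups.

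The lines used different sets of these genes before any compound. Between the controls, 8 of the 9 members were called, against 49.8% of all genes tested (21.1% higher and 28.8% lower in LOX-IMVI BR): EGFR and EREG were higher in LOX-IMVI BR, and ERBB2, ERBB3, TGFA, HBEGF, BTC and AREG were lower. The median difference of the 9 members was -3.26, and that of all genes tested was -0.12. NRG1 was at 8.27 ± 2.39 CPM in A375 control and 9.6 ± 0.633 CPM in LOX-IMVI BR control and was not called (0.23 ± 0.30, adjusted p = 0.547).

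Per kilobase, ERBB3 made up 64% ± 0.93 and ERBB2 27.1% ± 6.6 of the receptor level summed over EGFR, ERBB2, ERBB3 and ERBB4 in A375 control. In LOX-IMVI BR control EGFR made up 99.1% ± 0.062. TGFA made up 84.1% ± 9.8 of the level summed over 11 ligands in A375 control, and EREG made up 69% ± 0.91 in LOX-IMVI BR control. The receptor sum was 66.7 ± 0.51 CPM per kilobase in A375 control and 18.1 ± 0.23 in LOX-IMVI BR control. ERBB3, TGFA and EREG, each a leading gene of its line, were under 1 CPM in the control of the other line, whereas EGFR was present in both.

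**Figure D1:**
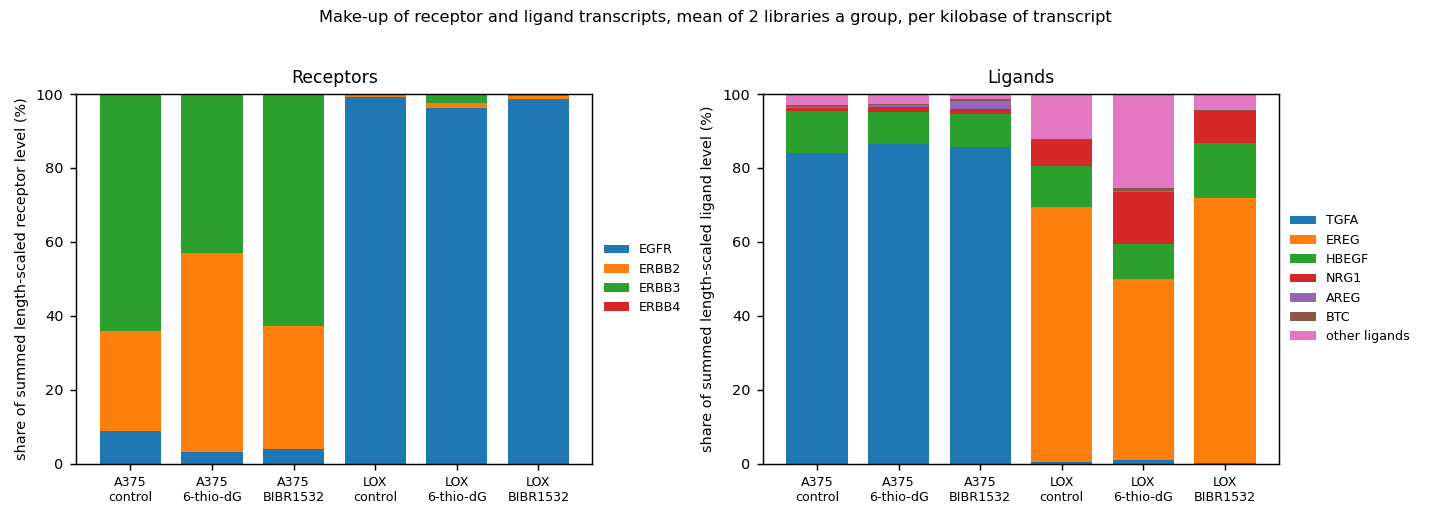
Share (percent, y axis) of the length-scaled receptor level (left) and ligand level (right) held by each gene in each of the 6 groups (x axis, LOX standing for LOX-IMVI BR), as the mean of 2 libraries. ERBB3 and ERBB2 with TGFA fill most of the A375 bars, and EGFR with EREG most of the LOX-IMVI BR bars.

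With 6-thio-dG in A375, EGFR, ERBB3 and BTC fell. These 3 of 9 members compare with 18.1% of all genes tested that were called in either direction, 9.86% that were called higher and 8.21% that were called lower. The test called 0 members higher, as did DESeq2, and 1 (AREG) was higher at an unadjusted p under 0.05. The median change of the members was -0.60, beside 0.03 over all genes tested. In the same libraries the summed level of the 11 markers of dedifferentiated melanoma was 1175 to 1729 CPM, against 5850 to 6574 CPM in control, and no marker of that list was at 0. That of the 8 leukocyte markers was 733 to 985 CPM against 174 to 421 CPM, nearly all of it CD68, with CD3E, LST1 and CD52 at 0 with the compound. The 10 melanocyte markers summed to 345 to 608 CPM against 637 to 733 CPM, with none at 0 with the compound and 1 called higher and 3 lower of 8 tested. The 6 endothelial markers summed to 5.76 to 7.79 CPM against 2.81 to 2.92 CPM, with 3 of 4 tested called higher and CDH5 at 0. The part of these 4 lists in the members' changes was not tested.

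With BIBR1532 in A375, AREG and NRG1 rose and EGFR fell. The 3 called members compare with 15.8% of all genes tested in either direction, 8.49% higher and 7.29% lower. The median change was 0.35, beside -0.04 over all genes tested. The 8 leukocyte markers summed to 578 to 634 CPM in these libraries, most of it again CD68, against 174 to 421 CPM in control, with CD3E at 0. The 10 melanocyte markers summed to 1385 to 1549 CPM against 637 to 733 CPM, with TYR at 0 and 2 called higher and 2 lower of 8 tested. The 6 endothelial markers summed to 8.53 to 8.79 CPM against 2.81 to 2.92 CPM, with 2 of 4 tested called higher. The part of these 3 lists in the changes was not tested.

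With 6-thio-dG in LOX-IMVI BR, ERBB3 rose and EREG fell. These 2 of 9 compare with 17.0% of all genes tested in either direction, 9.81% higher and 7.16% lower, and so lie near the background. The median change was 0.44, beside 0.05 over all genes tested. The fibroblast markers fell in the same libraries as given above, with 5 of 8 called lower and none at 0 in either group. The 11 markers of dedifferentiated melanoma summed to 4629 to 4787 CPM against 7520 to 7681 CPM in control, with 4 of 11 called lower and none at 0. The part of these 2 lists in the members' changes was not tested.

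With BIBR1532 in LOX-IMVI BR, the ligands EREG, HBEGF and NRG1 rose 4.60 to 5.90-fold. These 3 of 9 compare with 3.59% of all genes tested in either direction, 2.90% higher and 0.690% lower. The test called 0 members lower, as did DESeq2, and 0 were lower at an unadjusted p under 0.05. The median change was 1.71, beside 0.04 over all genes tested. The level summed over 11 ligands per kilobase was 23.2 ± 0.66 CPM in control and 103 ± 13.3 CPM with BIBR1532. The 11 markers of dedifferentiated melanoma summed to 12297 to 13408 CPM in these libraries against 7520 to 7681 CPM in control, with none at 0 and 1 of 11 called higher. The 8 leukocyte markers summed to 211 to 223 CPM against 92.8 to 93 CPM, with 0 of 4 tested called and CD3E and LST1 at 0. The part of these 2 lists in the changes was not tested.

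**Figure D2:**
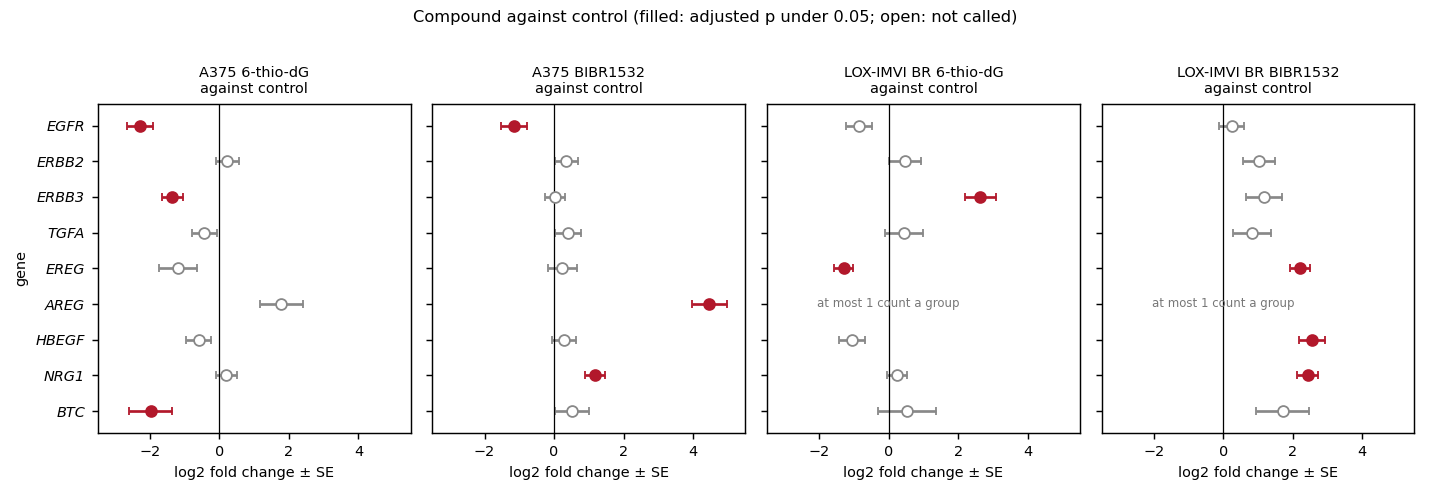
Log2 fold change ± SE (x axis) of each member (y axis) for each compound against the control of its line, with filled points where the adjusted p was under 0.05. The filled points to the right in LOX-IMVI BR with BIBR1532 are EREG, HBEGF and NRG1, and those to the left in A375 with 6-thio-dG are EGFR, ERBB3 and BTC. AREG is not drawn in LOX-IMVI BR, where a group held at most 1 count.

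Set directly against each other, the compounds differed in 4 of 9 members in A375, where 16.0% of all genes tested were called (7.26% higher and 8.76% lower with 6-thio-dG). They differed in 5 of 9 in LOX-IMVI BR, where 20.6% of all genes were called (9.90% higher and 10.7% lower). ERBB3, AREG, NRG1 and BTC were lower with 6-thio-dG at 5 µM than with BIBR1532 at 25 µM in A375. EGFR, EREG, HBEGF and NRG1 were lower and ERBB3 was higher with 6-thio-dG in LOX-IMVI BR. NRG1 was lower with 6-thio-dG in both lines (-0.98 ± 0.30, adjusted p = 0.0368 in A375 and -2.20 ± 0.30, adjusted p = 0.000169 in LOX-IMVI BR). In A375, EGFR (-1.13 ± 0.37, adjusted p = 0.0515), HBEGF (-0.89 ± 0.35, adjusted p = 0.0937) and TGFA (-0.84 ± 0.37, adjusted p = 0.142) were lower with 6-thio-dG but not called. With no filter on low counts all of them were called. DESeq2's test and a filter of 1 CPM in 2 libraries called EGFR and HBEGF, and DESeq2's size factors EGFR alone. Without control replicate 1 the changes were -1.15, -0.92 and -0.86, and without 6-thio-dG replicate 1 that of HBEGF was -1.37.

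Among the receptors, EGFR, the receptor of most of these ligands, was at 84 and 32.1 CPM in the 2 A375 control libraries, 11.9 and 12 CPM with 6-thio-dG and 24.4 and 27.8 CPM with BIBR1532. Both compounds' libraries lay below both controls, but the controls differed 2.62-fold from each other. EGFR was 4.86-fold lower with 6-thio-dG (-2.28 ± 0.38, adjusted p = 0.00154) and stayed called under all 21 alternatives, although without control replicate 1 the change was -1.44. With BIBR1532 it was 2.22-fold lower (-1.15 ± 0.37, adjusted p = 0.0452). That call was lost in 14 of 21 alternatives: without A375 control replicate 1 the change was -0.29 with an adjusted p of 0.384, without BIBR1532 replicate 1 or 2 the adjusted p was 0.288 or 0.188, and without any 1 of the 6 LOX-IMVI BR libraries it was 0.0728 to 0.0739.

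In LOX-IMVI BR, EGFR was at 177 and 174 CPM in control, 90.9 and 104 CPM with 6-thio-dG and 211 and 206 CPM with BIBR1532. The 6-thio-dG libraries were the lowest and the groups did not overlap, yet EGFR was not called against control (-0.85 ± 0.36, adjusted p = 0.126). It was called in 3 of 21 alternatives, which were the fit of the LOX-IMVI BR libraries alone (adjusted p = 1.21e-13) and the fits without A375 control replicate 1 or 2 (0.00621 and 0.00618). BIBR1532 against control gave 0.24 ± 0.36, adjusted p = 0.837, and the fit of that line alone called it (0.19, adjusted p = 0.00776). EGFR was higher with BIBR1532 than with 6-thio-dG (6-thio-dG minus BIBR1532 -1.10 ± 0.36, adjusted p = 0.0445), a call lost in 13 of 21 alternatives, including the leaving out of each of the 4 libraries compared (adjusted p 0.158 to 0.252), of either A375 BIBR1532 library or of either LOX-IMVI BR control library (0.0659 to 0.0867). The control lines differed 3.03-fold (1.60 ± 0.37, adjusted p = 0.00235), and 2.46 on the log2 scale without A375 control replicate 1. Over the 6 groups no 2 neighbours in the order of EGFR levels overlapped: LOX-IMVI BR with BIBR1532, control and 6-thio-dG came first, then A375 control, BIBR1532 and 6-thio-dG.

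ERBB2, the partner receptor without a ligand, was at 71.3 and 102 CPM in A375 control, 126 and 75.5 CPM with 6-thio-dG and 117 and 105 CPM with BIBR1532. The 6-thio-dG libraries overlapped those of control and of BIBR1532, while both BIBR1532 libraries lay just above both controls, and neither compound's change was called (0.22 ± 0.33, adjusted p = 0.677 with 6-thio-dG and 0.35 ± 0.33, adjusted p = 0.492 with BIBR1532). With EGFR and ERBB3 lower, the share of ERBB2 in the receptor level was 53.7% ± 2.9 with 6-thio-dG. In LOX-IMVI BR it was at 0.502 and 0.501 CPM in control, 0.602 and 0.793 CPM with 6-thio-dG and 1.3 and 0.796 CPM with BIBR1532, which is 21, 38 and 36 counts a group. The difference between the control lines was 173-fold (-7.42 ± 0.46, adjusted p = 1.66e-08). Within LOX-IMVI BR the changes were 0.48 ± 0.46, adjusted p = 0.539 with 6-thio-dG and 1.03 ± 0.46, adjusted p = 0.294 with BIBR1532, neither of them called.

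ERBB3, the neuregulin receptor, was at 254 and 251 CPM in A375 control, 117 and 79.9 CPM with 6-thio-dG and 270.15 and 244 CPM with BIBR1532. The 6-thio-dG libraries lay below the others, and those of BIBR1532 spanned the controls. The fall with 6-thio-dG was 2.57-fold (-1.36 ± 0.30, adjusted p = 0.00800), and the call was lost with upper-quartile scaling (-0.92, adjusted p = 0.0689) and in the fit of A375 alone (adjusted p = 0.0723). BIBR1532 gave 0.03 ± 0.30, adjusted p = 0.968. ERBB3 was lower with 6-thio-dG than with BIBR1532 (-1.39 ± 0.30, adjusted p = 0.00646), a call lost without A375 BIBR1532 replicate 1 (adjusted p = 0.0665) and in the fit of A375 alone (0.0631).

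In LOX-IMVI BR, ERBB3 was at 0.301 and 0.137 CPM in control, 1.4 and 1.35 CPM with 6-thio-dG and 0.411 and 0.562 CPM with BIBR1532. These are 9, 74 and 18 counts a group, and the groups did not overlap. The rise with 6-thio-dG was 6.28-fold (2.63 ± 0.45, adjusted p = 0.00122) and was called under all 21 alternatives, with 3.26 without control replicate 1. It ended at a level 71.4 times below that of A375 with the same compound. In these 6-thio-dG libraries 43631 and 42773 genes held a count, against 36440 and 37200 in control, and TYR and DCT were no longer at 0. The part of this wider detection in the rise of ERBB3 was not tested. BIBR1532 gave 1.17 ± 0.52, adjusted p = 0.283. The compounds differed (1.46 ± 0.40, adjusted p = 0.0187), though not when any 1 of the 4 libraries was left out (adjusted p 0.0902 to 0.161). The control lines differed 1153-fold (-10.15 ± 0.48, adjusted p = 5.31e-09).

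The effect of 6-thio-dG on ERBB3 differed between the lines by 4.0 ± 0.54, adjusted p = 0.000739. ERBB3 fell in A375 and rose from 9 to 74 counts in LOX-IMVI BR. It was the 1 member called in that test, against 5.54% of all genes tested (2.48% higher and 3.06% lower). The call held in all 20 alternatives. For EGFR the same difference was 1.43 ± 0.52, adjusted p = 0.127, which was not called, and it was 1.96 with an adjusted p of 0.00282 without A375 control replicate 2. For BTC it was 4.92 with an adjusted p of 0.014 without A375 6-thio-dG replicate 2, beside 2.51 ± 1.05, adjusted p = 0.194 with all libraries. ERBB4, the other neuregulin receptor, did not pass the filter on low counts, with 2 to 13 counts a group.

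**Figure D3:**
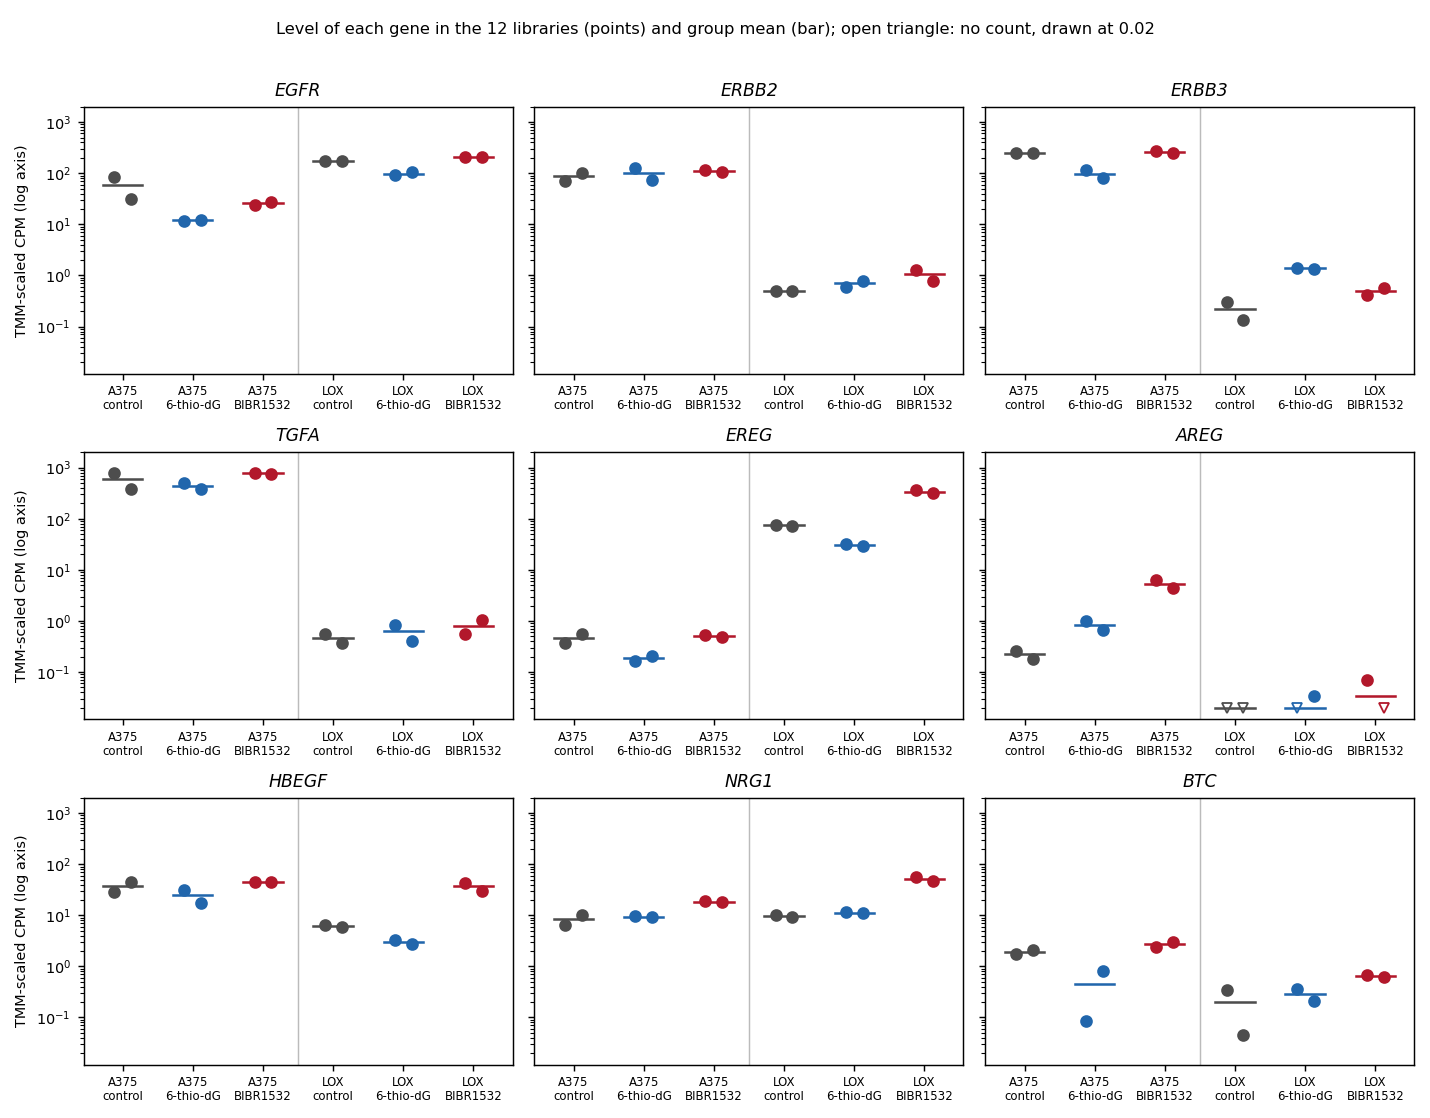
TMM-scaled CPM (log axis) of the 9 members in the 12 libraries; points are libraries, bars are group means and LOX stands for LOX-IMVI BR. ERBB2, ERBB3 and TGFA sit far higher in A375 and EREG far higher in LOX-IMVI BR, while NRG1 sits at like levels in both controls.

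TGFA, a ligand of EGFR, was at 787 and 385 CPM in A375 control, 493 and 376 CPM with 6-thio-dG and 799 and 755 CPM with BIBR1532. Both compounds' libraries overlapped the controls, which lay far apart, while those of 6-thio-dG lay below those of BIBR1532. Neither change was called (-0.43 ± 0.37, adjusted p = 0.438 with 6-thio-dG and 0.41 ± 0.37, adjusted p = 0.482 with BIBR1532). At 136 ± 66 CPM per kilobase in control it was the highest of the 9 members in A375, 3.19 times the per-kilobase level of ERBB3. In LOX-IMVI BR it was at 0.552 and 0.364 CPM in control, 0.842 and 0.414 CPM with 6-thio-dG and 0.548 and 1.03 CPM with BIBR1532, groups that overlapped and rest on 19, 33 and 30 counts. The control lines differed 1278-fold (-10.31 ± 0.58, adjusted p = 7.84e-09), and by -9.70 without A375 control replicate 1. 

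EREG, AREG and BTC lie in a row on chromosome 4, in the order EPGN, EREG, AREG, BTC among the coding genes of RefSeq's GRCh38.p14 annotation. EREG and AREG are direct neighbours; EREG was the leading ligand of LOX-IMVI BR, and AREG was low in both lines and reached its highest level in A375 with BIBR1532. Upstream sequences from RefSeq were read for 7 of the 9 members: ERBB3 had no entry and NRG1 was left out. Those of AREG, which rose in A375 with BIBR1532, and of EREG and HBEGF, which like NRG1 rose in LOX-IMVI BR, are shown. They are the 250 bases before the start site, 5′ to 3′ on the gene's strand. AREG is at chr4:74444886-74445135 on the plus strand, EREG at chr4:74364895-74365144 on the plus strand and HBEGF at chr5:140346604-140346853 on the minus strand. Capitals mark matches, on either strand, to the AP-1 site TGANTCA, the cyclic AMP response element TGACGTCA, the GC box GGGCGG and the TATA box TATAAA.
AREG: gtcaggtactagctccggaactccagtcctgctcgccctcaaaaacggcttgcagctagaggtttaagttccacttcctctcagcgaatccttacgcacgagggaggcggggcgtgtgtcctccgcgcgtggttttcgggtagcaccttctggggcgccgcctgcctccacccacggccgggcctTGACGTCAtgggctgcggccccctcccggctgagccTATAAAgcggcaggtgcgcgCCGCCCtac
EREG: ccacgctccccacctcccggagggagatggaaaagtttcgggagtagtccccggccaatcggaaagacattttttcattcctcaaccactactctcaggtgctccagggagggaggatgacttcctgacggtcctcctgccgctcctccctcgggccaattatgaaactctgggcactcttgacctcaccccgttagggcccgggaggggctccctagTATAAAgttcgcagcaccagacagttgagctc
HBEGF: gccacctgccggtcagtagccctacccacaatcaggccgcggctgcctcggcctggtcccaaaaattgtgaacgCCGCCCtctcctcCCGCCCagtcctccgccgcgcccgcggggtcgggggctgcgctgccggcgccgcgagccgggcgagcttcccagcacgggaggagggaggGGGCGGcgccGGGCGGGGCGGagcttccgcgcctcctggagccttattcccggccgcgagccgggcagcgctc
The AREG sequence held TGACGTCA 65 bases before the start site, a TATA box 29 bases before it and a GC box 9 bases before it. Of 35116 RefSeq promoters of 300 bases, 1.85% held TGACGTCA, 11.5% TATAAA, 45% GGGCGG and 7.71% TGANTCA. The EREG sequence held a TATA box 32 bases before the start site and no other of these motifs. The HBEGF sequence held 5 GC boxes, the nearest 2 of which share 1 base and lie 63 and 58 bases before the start site. The neighbours EREG and AREG thus both held a TATA box at nearly the same distance and differed in the other matches. On another chromosome, the EGFR sequence at chr7:55109589-55109838 also held a TATA box 36 bases before its start site. The EGFR sequence at chr7:55018767-55019016 held no TATA box, and had GC boxes 204 and 36 bases before its start site. The BTC sequence held no TATA box. All these matches are letters in a window and no evidence that a factor binds there.

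EREG, epiregulin, which binds EGFR and ERBB4, was at 76.2 and 71.8 CPM in LOX-IMVI BR control, 31.4 and 29 CPM with 6-thio-dG and 369 and 312 CPM with BIBR1532. The 3 groups did not overlap: every 6-thio-dG library was below and every BIBR1532 library above both controls. EREG rose 4.60-fold with BIBR1532 (2.20 ± 0.28, adjusted p = 0.000484), a call that held in all 21 alternatives. It fell 2.45-fold with 6-thio-dG (-1.29 ± 0.28, adjusted p = 0.00537). That call was lost without LOX-IMVI BR control replicate 1 (adjusted p = 0.0633), 6-thio-dG replicate 1 (0.0696) or 6-thio-dG replicate 2 (0.0871). The direct difference of the compounds was 11.3-fold (-3.49 ± 0.30, adjusted p = 3.85e-06).

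In A375, EREG was at 0.374 and 0.543 CPM in control, 0.167 and 0.201 CPM with 6-thio-dG and 0.538 and 0.485 CPM with BIBR1532, on 16, 5 and 22 counts. The changes were -1.20 ± 0.54, adjusted p = 0.215 with 6-thio-dG and 0.23 ± 0.42, adjusted p = 0.744 with BIBR1532, neither of them called. With the trend over GC content removed from each library, the change with BIBR1532 was called (1.49, adjusted p = 0.016). The control lines differed 161-fold (7.39 ± 0.39, adjusted p = 6.07e-09). The effect of BIBR1532 was larger in LOX-IMVI BR by 1.97 ± 0.51, adjusted p = 0.0470, one of 2 members called in that test against 3.64% of all genes tested (2.09% higher and 1.55% lower). This call was lost in 14 of 20 alternatives: with the GC trend removed the difference was 0.41 (adjusted p = 0.617), and leaving out any 1 of the 8 libraries that the difference uses gave an adjusted p of 0.0512 to 0.217. Without either LOX-IMVI BR 6-thio-dG library it was 0.0959 or 0.0964.

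AREG, amphiregulin, a ligand of EGFR alone, was at 0.262 and 0.181 CPM in A375 control, 1 and 0.672 CPM with 6-thio-dG and 6.23 and 4.46 CPM with BIBR1532. The 3 groups did not overlap, on 9, 22 and 231 counts. AREG rose 24.2-fold with BIBR1532 (4.47 ± 0.51, adjusted p = 9.88e-05), and all 21 alternatives called it. With 6-thio-dG it was 3.78-fold higher but not called (1.78 ± 0.62, adjusted p = 0.0607), and it was called with upper-quartile scaling, with the GC trend removed and without 6-thio-dG replicate 2 (adjusted p 0.0228 to 0.0426). The compounds differed 6.39-fold (-2.69 ± 0.43, adjusted p = 0.00107) in all 21 alternatives. At its highest AREG was at 4.31 ± 1.01 CPM per kilobase, beside 180.28 ± 7.09 for TGFA, and made up 2.04% ± 0.4 of the ligand level.

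In LOX-IMVI BR, AREG had 0 counts in control, 1 with 6-thio-dG and 1 with BIBR1532, so no fold is given for the compounds there. Against the 3 counts that a group at 0 allows over its 2 libraries (0.0716 CPM), the A375 control mean was 3.09-fold higher. That mean rests on 9 counts, and a 95% counting interval that includes their error put AREG at least 2.19-fold lower in LOX-IMVI BR control. The adjusted p of that difference was 0.00897, and the call was lost without A375 control replicate 1 (0.0734) or LOX-IMVI BR control replicate 2 (0.054). Older builds of the human genome carry a near-identical copy of AREG, so its level is uncertain wherever reads could be split between the copies.

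HBEGF, a ligand of EGFR and ERBB4 that also binds heparin, was at 6.53 and 5.92 CPM in LOX-IMVI BR control, 3.29 and 2.69 CPM with 6-thio-dG and 43.3 and 30.1 CPM with BIBR1532. As with EREG, the groups lay apart in the order BIBR1532, control, 6-thio-dG. HBEGF rose 5.90-fold with BIBR1532 (2.56 ± 0.37, adjusted p = 0.00100) and was called in all 21 alternatives. With 6-thio-dG it was 2.08-fold lower and not called (-1.06 ± 0.36, adjusted p = 0.0601), though 7 of 21 alternatives called it, among them those without a replicate of A375 control or A375 6-thio-dG, with adjusted p over all alternatives of 0.0124 to 0.32. The compounds differed 12.3-fold (-3.62 ± 0.39, adjusted p = 2.22e-05).

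In A375, HBEGF was at 28.6 and 45.5 CPM in control, 31.2 and 17.6 CPM with 6-thio-dG and 45.2 and 45.2 CPM with BIBR1532. Both compounds' libraries overlapped the controls, with changes of -0.60 ± 0.35, adjusted p = 0.238 for 6-thio-dG and 0.29 ± 0.34, adjusted p = 0.597 for BIBR1532. Without 6-thio-dG replicate 1 the former was -1.07 and called (adjusted p = 0.0409). The effect of BIBR1532 was larger in LOX-IMVI BR by 2.27 ± 0.50, adjusted p = 0.0236. That call was lost in 7 of 20 alternatives: with upper-quartile scaling (adjusted p = 0.0525) and without either replicate of A375 BIBR1532, LOX-IMVI BR control or LOX-IMVI BR BIBR1532 (0.0614 to 0.144). The control of LOX-IMVI BR was 5.95-fold below that of A375 (-2.57 ± 0.37, adjusted p = 4.56e-05), and with BIBR1532 the LOX-IMVI BR libraries lay within the range of the A375 control libraries.

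NRG1, a neuregulin and ligand of ERBB3, was at 10 and 9.15 CPM in LOX-IMVI BR control, 11.4 and 11.1 CPM with 6-thio-dG and 56.7 and 47 CPM with BIBR1532. In A375 it was at 6.58 and 9.96 CPM, 9.69 and 9.13 CPM and 18.6 and 18.4 CPM in the same order. In both lines the BIBR1532 libraries stood above all others, and it was the 1 member that rose with BIBR1532 in both. The rise was 5.40-fold in LOX-IMVI BR (2.43 ± 0.30, adjusted p = 0.000373), called in all 21 alternatives, and 2.24-fold in A375 (1.17 ± 0.30, adjusted p = 0.0181). The A375 call was lost without BIBR1532 replicate 1 (adjusted p = 0.137) or 2 (0.107) and in the fit of A375 alone (0.172). The difference between the lines was 1.26 ± 0.41, adjusted p = 0.0989, and it was called by DESeq2 (adjusted p = 0.0459) and without A375 control replicate 1 or either A375 6-thio-dG replicate (0.0146 to 0.0213).

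With 6-thio-dG, NRG1 gave 0.20 ± 0.30, adjusted p = 0.675 in A375 and 0.23 ± 0.29, adjusted p = 0.660 in LOX-IMVI BR, neither of them called. The 4 lowest groups in the order of NRG1 levels were thus both controls and both 6-thio-dG groups, and the lowest 3 overlapped with their neighbours. The direct difference of the compounds in A375 was lost in 12 alternatives, among them the leaving out of either A375 BIBR1532 library or any 1 of the 6 LOX-IMVI BR libraries (adjusted p 0.0632 to 0.178), and that in LOX-IMVI BR in none of 21. In LOX-IMVI BR the share of NRG1 in the ligand level was 6.96% ± 0.26 in control, 14.2% ± 0.7 with 6-thio-dG and 8.51% ± 0.018 with BIBR1532.

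BTC, betacellulin, which binds EGFR and ERBB4, was low throughout. It was at 1.76 and 2.08 CPM in A375 control, 0.0835 and 0.806 CPM with 6-thio-dG and 2.42 and 3.01 CPM with BIBR1532, on 70, 13 and 116 counts. The 6-thio-dG libraries lay below the controls but 9.65-fold apart from each other. The fall with 6-thio-dG (-1.98 ± 0.63, adjusted p = 0.0413) was lost in 14 of 21 alternatives; it was -4.41 without 6-thio-dG replicate 2 and -1.23 (adjusted p = 0.157) without replicate 1. Without A375 control replicate 1 or 2, or A375 BIBR1532 replicate 1 or 2, the adjusted p was 0.0759, 0.0919, 0.0563 and 0.0622. Without a replicate of LOX-IMVI BR 6-thio-dG or BIBR1532 it was 0.055 to 0.0561. BIBR1532 gave 0.52 ± 0.48, adjusted p = 0.492. The compounds differed in A375 (-2.50 ± 0.60, adjusted p = 0.0115), except without BIBR1532 replicate 2 (adjusted p = 0.0703), and the difference was -4.94 without 6-thio-dG replicate 2 and -1.76 without replicate 1.

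In LOX-IMVI BR, BTC was at 0.352 and 0.0455 CPM in control, 0.361 and 0.207 CPM with 6-thio-dG and 0.685 and 0.608 CPM with BIBR1532, on 8, 15 and 23 counts. The BIBR1532 libraries lay above the others, without a call (1.71 ± 0.77, adjusted p = 0.298). The 6-thio-dG libraries spanned part of the control range (0.53 ± 0.83, adjusted p = 0.737). The control lines differed 9.67-fold (-3.26 ± 0.67, adjusted p = 0.00104), by -2.40 without LOX-IMVI BR control replicate 2 and -5.19 without replicate 1.

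Among the 5 tested ligands outside the 9, EPGN, the neighbour of EREG, was higher in LOX-IMVI BR control (5.81 ± 0.76, adjusted p = 2.76e-05) and NRG2 and NRG3 were lower (-5.36 ± 0.50, adjusted p = 6.06e-07 and -4.14 ± 0.77, adjusted p = 0.000456), 3 of 5 beside 49.8% of all genes. EPGN was at 1.85 ± 0.277 CPM in LOX-IMVI BR control, 1.29 ± 0.125 CPM with 6-thio-dG and 3.43 ± 0.108 CPM with BIBR1532, the order seen for EREG. Its changes were not called (-0.52 ± 0.39, adjusted p = 0.417 with 6-thio-dG and 0.89 ± 0.37, adjusted p = 0.261 with BIBR1532), while the direct difference of the compounds was (-1.41 ± 0.38, adjusted p = 0.0174). In A375 with 6-thio-dG, EGF rose from 0.187 ± 0.264 to 1.51 ± 0.242 CPM (2.56 ± 0.75, adjusted p = 0.0299) and NRG3 fell from 0.904 ± 0.254 to 0.143 ± 0.0834 CPM (-2.62 ± 0.70, adjusted p = 0.0199), 2 of 5 tested beside 18.1% of all genes. DESeq2 called NRG3 but not EGF. NRG4, a ligand of ERBB4, made up 16.4% ± 1.6 of the ligand level in LOX-IMVI BR with 6-thio-dG.

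Of the 9 proteases and cofactors that cut ligands free, 3 fell with 6-thio-dG in LOX-IMVI BR, beside 7.16% of all genes tested, and none was called higher by edgeR, at an unadjusted p under 0.05 or by DESeq2. The metalloprotease ADAM12 went from 185 ± 6.71 to 13.9 ± 0.565 CPM (-3.73 ± 0.32, adjusted p = 8.13e-06), ADAM19 from 394 ± 12.4 to 82.5 ± 4.88 CPM (-2.25 ± 0.31, adjusted p = 0.000313) and ADAM9 from 312 ± 0.655 to 57.2 ± 1.05 CPM (-2.45 ± 0.50, adjusted p = 0.00405). ADAM12 also fell with BIBR1532 in that line, to 84.6 ± 2.3 CPM (-1.13 ± 0.29, adjusted p = 0.0443), the 1 of 9 called, beside 3.59% of all genes. In A375 with 6-thio-dG, ADAM9 and ADAM15 fell and FRMD8, a cofactor of ADAM17, rose, 3 of 9 beside 18.1% of all genes. In A375 with BIBR1532, ADAM19 (17.8 ± 1.71 to 137 ± 17 CPM, 2.94 ± 0.33, adjusted p = 6.40e-05), FRMD8 and ADAM12 rose and ADAM9 fell, 4 of 9 beside 15.8% of all genes. ADAM17 itself was in none of these calls. The median change of the list was -1.02 and 0.38 in A375 with 6-thio-dG and BIBR1532, and -0.73 and -0.23 in LOX-IMVI BR.

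Receptor inhibitors and the genes of receptor degradation had 3 of 20 tested members called with 6-thio-dG in A375, all of them lower, beside 18.1% of all genes called and 8.21% called lower, so the list's count lies near the background. These were LRIG3 (80.4 ± 5.25 to 21.8 ± 4.13 CPM, -1.88 ± 0.28, adjusted p = 0.000819), the adaptor SH3KBP1 and ERRFI1, a cytoplasmic inhibitor of EGFR (624 ± 242 to 223 ± 8.85 CPM, -1.48 ± 0.30, adjusted p = 0.00453). In LOX-IMVI BR with 6-thio-dG 4 fell and 1 rose, 5 of 20 beside 17.0% of all genes. The largest of these was LRIG1, a membrane protein that lowers ERBB receptor levels, from 139 ± 0.0934 to 9.99 ± 1.38 CPM (-3.80 ± 0.30, adjusted p = 4.61e-06), beside the ubiquitin ligase CBLB, SH3KBP1 and PTPRJ, and the one that rose was LRIG2 (1.09 ± 0.33, adjusted p = 0.0365). In A375 with BIBR1532, PTPRJ rose and SOCS5 and USP8 fell, 3 of 20 beside 15.8% of all genes. In LOX-IMVI BR with BIBR1532 edgeR called 0 of 20 and DESeq2 called 1, with 2 higher at an unadjusted p under 0.05. The median change of the list was -0.55 and -0.25 in A375 and -0.38 and 0.26 in LOX-IMVI BR, in the order 6-thio-dG and BIBR1532.

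The 20 adaptors and scaffolds had 3 lower with 6-thio-dG in A375 (GRB10, SHC4 and SHC2), 1 higher with BIBR1532 in A375 (SHC4), and 3 lower and 1 higher with 6-thio-dG in LOX-IMVI BR. These called counts of 3, 1 and 4 of 20 compare with 18.1%, 15.8% and 17.0% of all genes and lie near or under the background. The higher one in LOX-IMVI BR was GAB2, an adaptor to PI3K, from 22.1 ± 0.592 to 67.4 ± 3.92 CPM (1.61 ± 0.30, adjusted p = 0.00244), and the lower ones were SHC3, NCK2 and VAV3. Of the 13 RAS, RAF, MEK and ERK genes, KSR1, a scaffold of the cascade, rose with BIBR1532 in A375 (1.69 ± 0.33, adjusted p = 0.00420) and MAP2K1, a MEK, fell with 6-thio-dG in LOX-IMVI BR (-1.12 ± 0.31, adjusted p = 0.0221), each the 1 of 13 called, beside 15.8% and 17.0% of all genes. With 6-thio-dG in A375 edgeR called 0 of these 13, with 2 lower at an unadjusted p under 0.05 and 2 lower by DESeq2. Of the 12 PI3K and AKT genes, 3 fell with 6-thio-dG in A375, INPP4B and PIK3CD among them, beside 8.21% of all genes. With BIBR1532 in A375, 2 of the 12 fell, INPP4B among them, and PIK3R3 rose, beside 15.8% of all genes in either direction. PIK3R3 and PIK3CD fell with 6-thio-dG in LOX-IMVI BR, beside 7.16% of all genes. With BIBR1532 in LOX-IMVI BR edgeR and DESeq2 called 0 genes of these 3 lists, and 2, 1 and 2 of them passed an unadjusted p under 0.05. The median changes of the adaptor, RAS to ERK and PI3K lists lay between -0.47 and 0.14 in these 4 comparisons, beside -0.04 to 0.05 over all genes tested.

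Each of the 4 comparisons of a compound with its control called at least 1 of 17 genes whose transcription ERK signalling is known to raise. The called genes differed between comparisons, and none was called in all 4. The count of called genes stood well over the share of all genes only in A375 with 6-thio-dG and in LOX-IMVI BR with BIBR1532. In the other comparisons it lay near or under that share. In A375 with 6-thio-dG 9 of 17 tested fell, against 8.21% of all genes, with a median of -1.16. The ERK phosphatase DUSP6 went from 289 ± 25.7 to 85 ± 10.3 CPM (-1.77 ± 0.27, adjusted p = 0.000947), cyclin D1 (CCND1) from 843 ± 189 to 289 ± 29.9 CPM (-1.54 ± 0.27, adjusted p = 0.00199) and the RAS pathway inhibitor SPRY2 from 397 ± 6.02 to 132 ± 33.2 CPM (-1.59 ± 0.28, adjusted p = 0.00226). In LOX-IMVI BR with BIBR1532, where EREG, HBEGF and NRG1 rose, 6 of 17 rose, against 2.90% of all genes, with a median of 0.96. The immediate early factor EGR1 went from 11.8 ± 0.247 to 281 ± 133 CPM (4.57 ± 0.49, adjusted p = 0.000133), DUSP5 from 10.9 ± 0.755 to 64.5 ± 4.78 CPM (2.57 ± 0.32, adjusted p = 0.000380) and SPRY4 from 15 ± 1.28 to 65.1 ± 13.6 CPM (2.11 ± 0.33, adjusted p = 0.00183). In A375 with BIBR1532 EGR1 was the 1 of 17 called, beside 15.8% of all genes (2.40 ± 0.45, adjusted p = 0.00317), with a median of 0.33. In LOX-IMVI BR with 6-thio-dG DUSP5 rose (1.99 ± 0.32, adjusted p = 0.000774) and EPHA4, PHLDA1 and ETV1 fell, 4 of 17 beside 17.0% of all genes, with a median of 0.32.

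Of 14 tested receptor tyrosine kinases outside the family, 5 fell with 6-thio-dG in A375, beside 8.21% of all genes, among them AXL (1523 ± 175 to 249.97 ± 62.5 CPM, -2.61 ± 0.28, adjusted p = 9.14e-05), DDR2, EPHA2 and MET. In LOX-IMVI BR with 6-thio-dG, PDGFRA (56.1 ± 1.1 to 5.11 ± 0.138 CPM, -3.46 ± 0.31, adjusted p = 1.06e-05), AXL, DDR1 and PDGFRB fell and DDR2 rose, 5 of 14 beside 17.0% of all genes. With BIBR1532, PDGFRB rose and MET fell in A375, 2 of 14 beside 15.8% of all genes, and EPHA2 and DDR2 rose and PDGFRA fell in LOX-IMVI BR, 3 of 14 beside 3.59%. The median changes of this list were -0.88 and -0.10 in A375 and -0.43 and -0.24 in LOX-IMVI BR, in the order 6-thio-dG and BIBR1532. EPHA2 also belongs to the list of ERK-raised genes above, so its calls count in both lists. AXL is also among the dedifferentiated melanoma markers, and PDGFRB among the fibroblast markers.

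**Figure D4:**
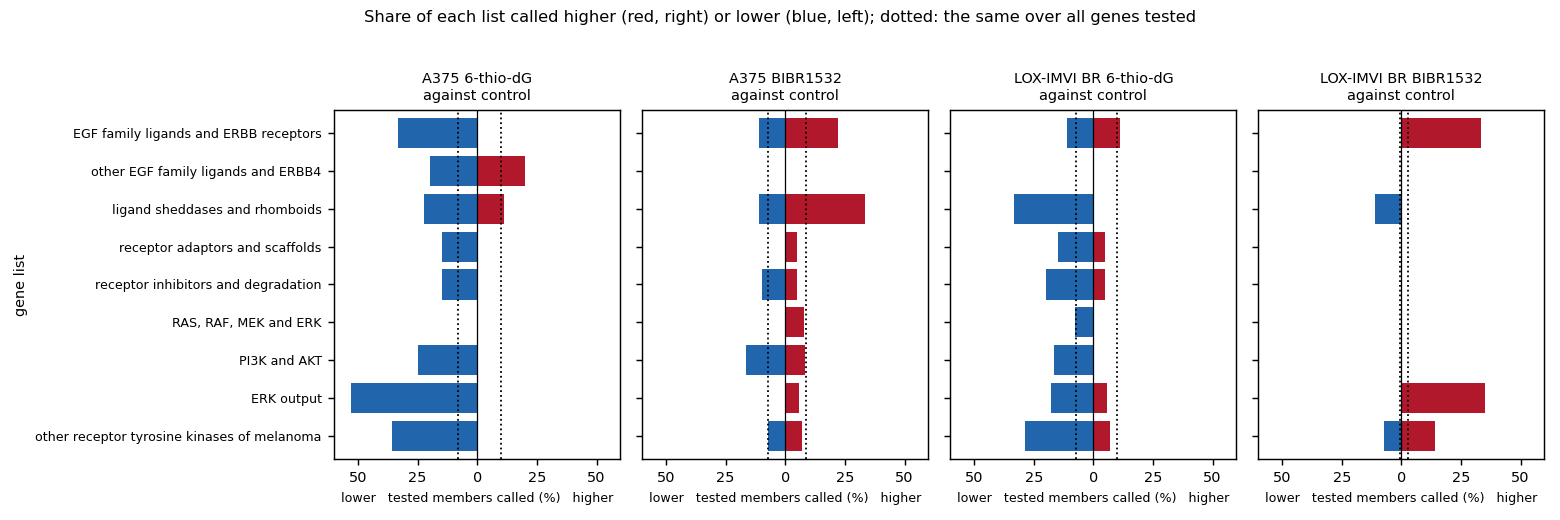
Percent of the tested members of each pathway list (y axis) called higher (red, to the right) or lower (blue, to the left) for each compound and line, with dotted lines at the percent over all genes tested. The longest blue bar is ERK output in A375 with 6-thio-dG (9 of 17). In LOX-IMVI BR with BIBR1532 the red bars are the 9 members (3), ERK output (6) and other receptor tyrosine kinases (2). EPHA2 belongs to both the ERK output and the other receptor tyrosine kinase lists and counts in each.

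For each member, the 2 genes with the most alike pattern over the 12 libraries were taken among 11339 named genes (11340 for BTC) whose highest group mean reached 5 CPM. The measure was Pearson's r of log2 CPM, which is a description here, since the 12 points share 2 lines and 3 treatments. ERBB2 was nearest to METTL7B and VAMP5 (both 1.00 to 2 decimals), TGFA to DZIP1 and PTGFRN (1.00 each) and ERBB3 to ZNF671 (1.00) and IDNK (0.99). EGFR was nearest to FOXP1 and JAZF1 (0.99 each), EREG to PID1 and CSF3 (0.99 each) and AREG to TRIM43 (0.99) and SERPIND1 (0.98). HBEGF was nearest to SLC22A5 (0.98) and ANKRD33B (0.97), NRG1 to SLC6A7 (0.93) and CACNA1A (0.92), and BTC to TTC32 (0.92) and SPX (0.91). The nearest genes of the 9 members were 18 different genes.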

How the data were processed

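RNA from the 12 libraries was purified with TRIzol and sequenced from a TruSeq kit that does not mark strand, per the labels' protocols, so a gene and an antisense partner cannot be told apart. The deposited values are raw read counts per gene, not normalized. The submitters' processing notes name STAR, Picard, GATK, featureCounts 1.5.1, hg19 and GRCh37, without their roles. The table held 54072 NONCODE rows and 21177 symbol rows; 4 rows whose names had turned into ambiguous dates were left out (at most 0.000913% of a library).

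Counts of all 12 libraries were fitted together in edgeR 4.0.16 (R 4.3.3) with filterByExpr, TMM scaling, a mean per line and treatment and robust quasi-likelihood tests, leaving 6 residual degrees of freedom and 1 pooled spread for both lines. P-values were adjusted within each of 9 comparisons over 29114 genes (14439 named by symbol). The test was tried on simulated counts. Levels per kilobase used the longest coding transcript in GENCODE v29. Alternatives were DESeq2 1.42.0 and its size factors, upper-quartile factors, other filters, each line alone, a replicate block, removal of a GC trend, named genes only and leaving out each library. The members and lists were chosen with earlier results of these data known. Named were all 9 members, up to 4 called genes of each list with the smallest adjusted p, and the 2 nearest genes of each member; marker genes, ADAM17, ERBB4, NRG4, LRIG2, PDGFRB and MET with 6-thio-dG were named after their values were seen, and a few genes of the lists are not reported here. P-values measure the spread between replicates, 2 a group, pooled for each gene over the 6 groups of both lines. The fit draws each gene's spread toward a trend over all genes tested, so a p-value uses more than that gene's 6 residual degrees of freedom. That spread is shared although replicates of A375 control and A375 6-thio-dG lay further apart than those of the other groups. A floor of 3 counts covers counting error only. 0 columns belonged to no sample.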

Additional observations from a re-analysis of the deposited data

Results flagged for a closer look

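The effect of 6-thio-dG on ERBB3 differed between the lines by 4.0 on the log2 scale (adjusted p = 0.000739, edgeR interaction test, LOX-IMVI BR minus A375). Both LOX-IMVI BR libraries rose above both controls and both A375 libraries lay below theirs, with changes of 2.63 and -1.36. The LOX-IMVI BR change rests on 9 counts in control and 74 with 6-thio-dG.

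The effect of BIBR1532 on EREG differed by 1.97 (adjusted p = 0.047), with changes of 2.20 in LOX-IMVI BR and 0.23 in A375, where the gene had 16 counts in control and 22 with BIBR1532. The effect of BIBR1532 on HBEGF differed by 2.27 (adjusted p = 0.0236), with changes of 2.56 in LOX-IMVI BR and 0.29 in A375. In both cases the 2 LOX-IMVI BR libraries with BIBR1532 lay above both controls, and the A375 libraries with BIBR1532 overlapped theirs.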

How the results depend on the processing

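Of 31 called results of single members, 18 were called in every alternative run and 13 were lost in at least 1; 0 called results changed direction. The number of called members moved by over 1.5 times as follows. With the libraries of the line alone, it was 1 in place of 3 for 6-thio-dG in A375, 1 in place of 3 for BIBR1532 in A375, 4 in place of 2 for 6-thio-dG in LOX-IMVI BR, 5 in place of 3 for BIBR1532 in LOX-IMVI BR and 2 in place of 4 for the compounds against each other in A375. With the GC trend removed it was 5 for BIBR1532 in A375. With no filter on low counts it was 7 for the compounds against each other in A375 and 2 in place of 1 for the line difference in the 6-thio-dG effect. For the line difference in the BIBR1532 effect (2 called), it was 1 with DESeq2's size factors, 0 with upper-quartile factors (the adjusted p of HBEGF was 0.0525, and DESeq2 called 3) and 1 with the GC trend removed. Over all genes tested, the fit of A375 alone called 1227 of 24026 with 6-thio-dG, beside 5261 of 29114 in the main fit. With BIBR1532 in A375 these counts were 924 of 24026 and 4594 of 29114. With 6-thio-dG in LOX-IMVI BR they were 15119 of 24087 and 4939 of 29114. In these comparisons the members' counts thus moved along with those over all genes. The fits of 1 line use fewer samples and the spread of that line alone, and the causes of all these moves were not tested.

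Leaving out each library in turn gave 2 to 4 called members for 6-thio-dG in A375, 1 to 3 for BIBR1532 in A375, 1 to 4 for 6-thio-dG in LOX-IMVI BR and 3 to 3 for BIBR1532 in LOX-IMVI BR. It gave 2 to 7 and 3 to 5 for the compounds against each other in A375 and LOX-IMVI BR, 1 to 2 and 0 to 3 for the line differences in the effect of 6-thio-dG and BIBR1532, and 7 to 8 for the controls. A lone sample left in a group was assumed to vary like the other groups. The number of calls over all genes tested also moved between these fits, so a lost call is read here beside the size of the change. For BIBR1532 in A375, NRG1 changed by 1.17 with all libraries, and by 1.17 and 1.20 without BIBR1532 replicate 1 and 2. EGFR changed by -1.15 with all libraries, and by -1.06 and -1.23 without these replicates, but by -0.29 without A375 control replicate 1. The cause of the lost calls was not tested.

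With the GC trend removed, the differences between the control lines were -6.59 for ERBB2, -9.50 for ERBB3, 6.35 for EREG, -1.95 for HBEGF and -3.94 for BTC, all still called. Upper-quartile factors moved the median of all genes for 6-thio-dG in A375 from 0.03 to 0.43, and the share of calls that were higher from 54.6% to 80%.

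The replicate number as a block left 1 member called, HBEGF, for the line difference in the BIBR1532 effect (EREG had an adjusted p of 0.077) and took the calls of EGFR for BIBR1532 in A375 (0.0945), of NRG1 for the compounds in A375 (0.064) and of EGFR for the compounds in LOX-IMVI BR (0.0701). The labels do not say that a number marks a shared day or batch, so the main fit held no block. Deviations of same-numbered libraries correlated at 0.31 between A375 6-thio-dG and A375 BIBR1532. All other pairs of groups, within a line or between the lines, gave -0.12 to 0.03. Whether the same-numbered A375 libraries of the compounds share more than a number was not tested.

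Low counts limit AREG and BTC in both lines, ERBB2, ERBB3 and TGFA in LOX-IMVI BR and EREG in A375. Every value is limited by 2 libraries a group.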
